A study of Mus musculus with 24 samples.

Results

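The transcriptome of MMTV-Wnt1 mouse mammary tumours was compared between 4 libraries from mice given E7386 at 50 mg/kg and 4 libraries from mice given vehicle, all collected on day 4 after 3 days of dosing. These 8 libraries were chosen by their labels from 24 in the series, and 15736 of 47729 listed genes, those at 1 TPM or more (a unit of relative transcript abundance, scaled to the same total in every library) in at least 4 of the 24 libraries, were tested. The tumours arose spontaneously in mammary tissue of B6SJL-Tg(Wnt1)1Hev/J mice, which carry Wnt1 under the mouse mammary tumour virus (MMTV) promoter, and pieces of them were transplanted into C57BL/6J hosts. Once the tumours reached about 200 mm3, on a day called 1, E7386 or vehicle was given by mouth 2 times a day. The same model was also dosed at 25 mg/kg until day 4, and with vehicle, 25 or 50 mg/kg for 7 days until day 8, with 4 libraries in each group. The same transgene is present in vehicle and treated tumours alike, and how many donor tumours or separate mice the libraries come from is not given in the sources used here. The p-values therefore measure the spread between libraries, part of which may be technical.

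E7386 is known as an orally active modulator of the interaction between β-catenin and CBP, the coactivator encoded by Crebbp. Wnt1 is a secreted ligand that stabilises β-catenin, which enters the nucleus, binds TCF and LEF factors and recruits CBP or its relative p300. Other pathways described below have their own regulators. ATF4, made when translation initiation factor eIF2 is phosphorylated, activates genes of amino acid synthesis, import and tRNA charging. SREBP factors activate cholesterol synthesis, HIF factors activate glycolysis and other genes of low oxygen, and E2F factors activate DNA replication genes.

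Between 14496 and 15127 genes reached 1 TPM in a library, and mitochondrially encoded transcripts made up 8.29% to 11.3% of the total. TPM values keep no record of sequencing depth, so the number of reads behind a value is unknown. In the labelled tissue, Wnt1 itself was read at 105, 107, 149 and 153 TPM in vehicle replicates 1 to 4 and at 94.3, 138, 119.9 and 112 TPM at 50 mg/kg, and the groups overlapped (log2 fold change -0.14, SE 0.29, adjusted p = 0.807). Keratins of mammary epithelium were abundant, with a mean level over the list of 7.02 to 7.26 on the log2(TPM + 1) scale in vehicle and 7.32 to 7.85 at 50 mg/kg. Replicate 4 stood apart in skeletal muscle markers in both groups, with a list mean of 3.51 against 0.56, 0.65 and 0.70 in the other 3 vehicle libraries and of 5.13 against 0.61 to 2.81 in the other 3 libraries at 50 mg/kg. Along the first principal component of these 8 libraries, which held 30.6% of the variance, the 4 vehicle libraries lay between -31.4 and -9.93 and the 4 libraries at 50 mg/kg between 1.95 and 32.0.

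At 50 mg/kg 779 genes rose and 678 fell (limma on log2(TPM + 1), Benjamini-Hochberg adjusted p under 0.05), that is 9.26% of the genes tested, 4.95% higher and 4.31% lower. Most of the changes were small. Their median log2 fold change was 0.45 for the genes that rose and -0.43 for those that fell, and 71 genes rose and 39 fell by 2-fold or more. Over all genes tested the median log2 fold change was 0.03. Groups that did not overlap, all 4 treated values above all 4 vehicle values or below them, were found for 10.4% of all genes in the upward direction and 7.98% in the downward direction. Calls became more frequent with level, from 3.36% of genes under 5 TPM to 17.6% of genes above 100 TPM. The genes that rose made up 4.10% of all transcripts in vehicle and 5.91% at 50 mg/kg, and those that fell went from 8.47% to 6.37%. Leaving out single libraries left between 699 genes (without 50 mg/kg replicate 3) and 1311 genes. With vehicle replicate 3 left out the count was 780, with replicate 1 of that group it was 869 and with replicate 4 it was 881. Tested against a minimum change of 1.2-fold, 114 genes were called. Quantile normalization gave 656 genes higher and 873 lower, a split that leans the other way.

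**Figure D1:**
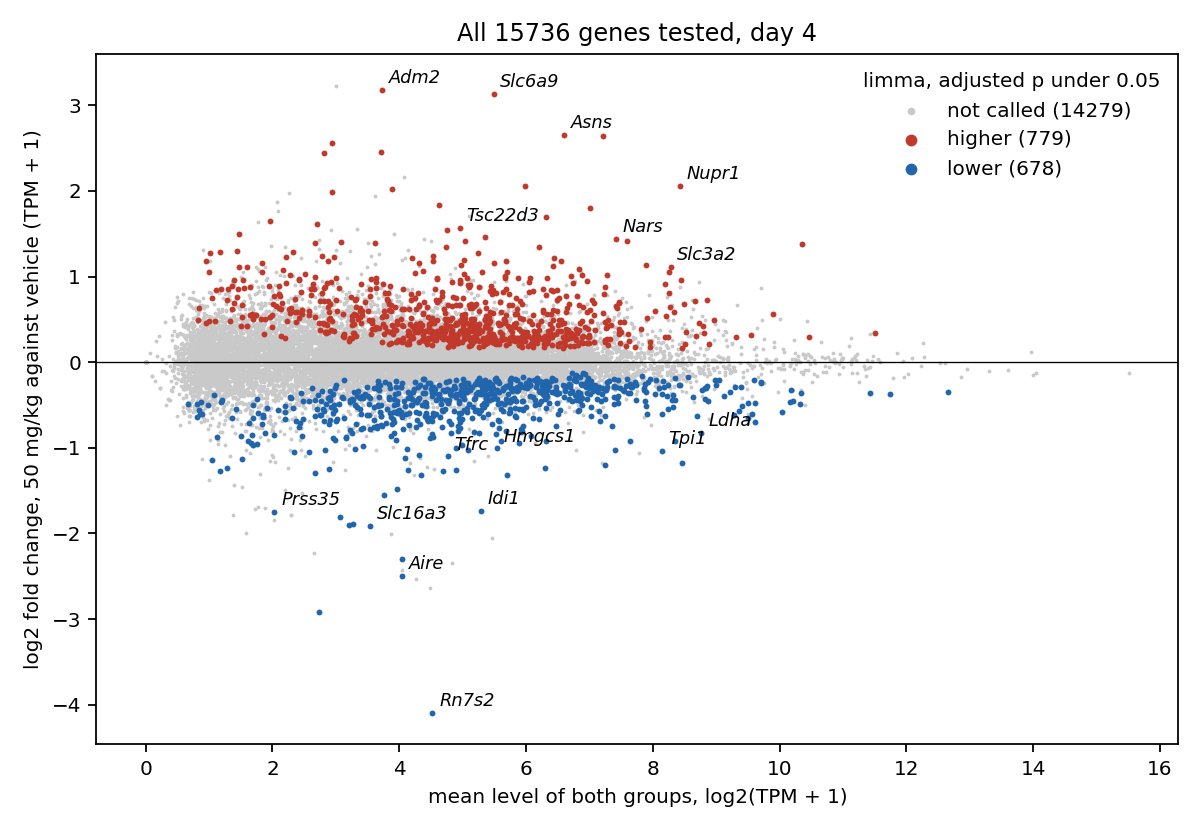
Log2 fold change at 50 mg/kg against vehicle on day 4 (vertical axis, TPM + 1) against the mean level of both groups, log2(TPM + 1), for each of the 15736 genes tested. The 779 genes called higher are red and the 678 called lower are blue; Adm2, Slc6a9 and Asns are among the highest points and Aire and Idi1 lie well below 0.

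Many genes of the amino acid response, which ATF4 is known to activate, rose. Of 23 stress response regulators tested 14 rose and none fell, of 25 enzymes of amino acid synthesis and one-carbon metabolism 13 rose, of 24 amino acid transporters 8 rose, and of 20 cytosolic tRNA synthetases 13 rose and 1, Farsa, fell. The list medians were 0.62, 0.84, 0.32 and 0.83 on the log2 scale, beside 0.03 over all genes and a share of 9.26% called. Without single libraries the counts ranged from 12 to 15 regulators, 12 to 13 enzymes, 7 to 8 transporters and 11 to 12 synthetases higher, and with the 1.2-fold minimum they were 11, 8, 5 and 11.

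Asns, which makes asparagine from aspartate and lies at chr6:7675169-7693254, minus strand of GRCm38, was read at 28.3, 24.4, 22.3 and 26.98 TPM in vehicle replicates 1 to 4 and at 168, 138, 166 and 193 TPM at 50 mg/kg. All 4 treated libraries lay above every vehicle library, and the lowest of them was replicate 2 (log2 fold change 2.66, SE 0.16, adjusted p = 2.01e-09). Slc6a9, the glycine transporter GlyT1 (chr4:117834506-117875198, plus strand), stood at 6.60, 8.75, 8.79 and 8.17 TPM in vehicle and at 71.2, 60.7, 83.5 and 104 TPM in treated tumours. The treated group was again separate, with its highest value in replicate 4 (log2 fold change 3.13, SE 0.25, adjusted p = 7.63e-08). Adm2, a peptide hormone of the calcitonin family (chr15:89322720-89324731, plus strand), was close to the filter in vehicle at 1.09, 1.38, 1.55 and 2.05 TPM and reached 17.2, 13.5, 26.7 and 34.6 TPM. Its treated libraries were all higher (log2 fold change 3.18, SE 0.33, adjusted p = 2.15e-06), and the fold of such a low gene is understated by the added 1 TPM.

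Among the regulators, the transcription factor gene Atf5 rose from a mean of 39.8 ± 4.38 TPM (SD, n = 4) to 255 ± 37.1 TPM (log2 fold change 2.64, SE 0.17, adjusted p = 2.53e-09), and the translational repressor gene Eif4ebp1 from 56.1 ± 5.60 to 201 ± 44.7 TPM (log2 fold change 1.80, SE 0.15, adjusted p = 1.07e-07). Trib3, a pseudokinase that restrains ATF4, rose from 4.37 ± 1.36 to 23.3 ± 15.4 TPM (log2 fold change 2.02, SE 0.29, adjusted p = 0.000134). Cebpg, whose product pairs with ATF4 on DNA, rose from 35.5 ± 2.35 to 65.7 ± 12.03 TPM (log2 fold change 0.85, SE 0.10, adjusted p = 7.07e-06). Ddit3, the gene of CHOP, a factor of prolonged stress, rose with a log2 fold change of 1.18 (limma, adjusted p = 8.7e-05). Atf4 itself, which is controlled largely through translation, was read at 198, 197, 192 and 187 TPM in vehicle and at 216, 216, 235 and 339 TPM at 50 mg/kg. Every treated value was above every vehicle value and replicate 4 was the highest, yet the test was not passed (log2 fold change 0.35, SE 0.13, adjusted p = 0.104). Chac1, which degrades glutathione, was read at 0.780, 0.710, 0.930 and 1.07 TPM in vehicle and at 7.19, 4.62, 10.1 and 28.02 TPM in treated tumours, where replicate 4 held the highest value (log2 fold change 2.56, SE 0.41, adjusted p = 0.000411).

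The enzymes that rose cover several routes. Aldh18a1, the first enzyme of proline synthesis from glutamate, was read at 42.1, 35.7, 42.6 and 42.5 TPM in vehicle and at 96.2, 104, 100.3 and 121 TPM at 50 mg/kg. The groups were far apart relative to their spread (log2 fold change 1.35, SE 0.12, adjusted p = 3.08e-07). Serine synthesis was represented by Phgdh, Psat1 and Psph, with log2 fold changes of 1.05, 1.02 and 1.13, all past the threshold. The call of Psat1 was lost without vehicle replicate 2 or 4 or replicate 4 at 50 mg/kg, where its log2 fold change was 0.84 to 0.96 (largest adjusted p = 0.0601). In mitochondrial one-carbon metabolism Mthfd2 rose from 22.97 ± 3.10 to 101 ± 32.1 TPM (log2 fold change 2.05, SE 0.26, adjusted p = 3.27e-05) and Aldh1l2 from 9.68 ± 0.896 to 37.5 ± 6.89 TPM (log2 fold change 1.84, SE 0.12, adjusted p = 2.53e-09), whereas the cytosolic enzyme gene Mthfd1 did not pass (-0.33). Gpt2, the mitochondrial alanine transaminase, rose from 32.9 ± 4.29 to 67.1 ± 7.77 TPM (log2 fold change 1.01, SE 0.09, adjusted p = 5.26e-07). Pck2, the mitochondrial enzyme that makes phosphoenolpyruvate, was read at 12.7, 12.6, 11.9 and 13.9 TPM in vehicle and at 39.3, 36.3, 37.3 and 44.5 TPM in treated tumours, groups that did not overlap (log2 fold change 1.55, SE 0.10, adjusted p = 2.01e-09).

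Of the transporters, Slc3a2, the heavy chain shared by the LAT1 and cystine exchangers, was read at 204, 189, 189 and 198 TPM in vehicle and at 400.4, 391, 413 and 494 TPM at 50 mg/kg (log2 fold change 1.11, SE 0.07, adjusted p = 3.42e-09). Its vehicle values spanned a narrow range and all treated values lay far above it. The light chains Slc7a11, which imports cystine, and Slc7a5, of LAT1, rose as well, with log2 fold changes of 2.44 and 1.13. So did the cationic amino acid carriers Slc7a1 and Slc7a3 (1.05 and 0.96) and the glutamine carrier Slc1a5 (0.75). The glutamine carriers Slc38a1 and Slc38a2 did not pass (0.31 and 0.21).

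Cytosolic tRNA synthetases, which load tRNAs with their amino acids, were higher for some amino acids and not for others. Nars, for asparagine, was read at 93.3, 84.6, 94.5 and 91.6 TPM in vehicle and at 256, 212, 253 and 278 TPM at 50 mg/kg. Its vehicle libraries differed little from each other and the treated group was entirely above them (log2 fold change 1.44, SE 0.09, adjusted p = 2.01e-09). Cars, for cysteine, rose from 36.6 ± 4.50 to 121 ± 18.4 TPM (log2 fold change 1.70, SE 0.15, adjusted p = 3.5e-07), Tars, for threonine, from 51.5 ± 3.47 to 121 ± 18.6 TPM (log2 fold change 1.21, SE 0.11, adjusted p = 3.62e-07) and Sars, for serine, from 198 ± 7.82 to 412 ± 47.7 TPM (log2 fold change 1.05, SE 0.08, adjusted p = 2e-08). Aars, Gars, Iars, Lars, Mars and Yars rose by 0.93 to 1.18 on the log2 scale. Hars, Kars, Qars, Rars, Vars and Wars did not pass and lay between -0.07 and 0.22. The 17 mitochondrial tRNA synthetases, coded by separate genes, had a median of -0.03, and none of them rose. Of 23 genes for translation initiation factors, a repressor of them and the eIF2 kinases, 5 factors rose and 1 fell, 26.1% beside 9.26% of all genes. No eIF2 kinase gene passed. Among the rises were Eif1, a factor of start codon choice, from 305 ± 13.2 to 503 ± 73.5 TPM (log2 fold change 0.71, SE 0.08, adjusted p = 1.03e-05) and Eif2s2, the beta subunit of eIF2, from 133 ± 4.52 to 219 ± 34.7 TPM (log2 fold change 0.70, SE 0.10, adjusted p = 0.000109). Without vehicle replicate 1 or 3, or replicate 3 at 50 mg/kg, 3 of these factors rose and none fell. None of 42 ribosomal protein genes passed, and their median was 0.01.

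Chaperone genes past the threshold mostly fell. Of 27 genes for chaperones and folding in the endoplasmic reticulum 3 rose (Dnajb9, Herpud1 and Sel1l) and 6 fell, with a median of -0.20. In all 33.3% were called, beside 9.26% of all genes. Hspa5, the main chaperone BiP of that compartment, was read at 429, 354, 373 and 347 TPM in vehicle and at 296, 231, 261 and 257 TPM at 50 mg/kg. All treated values were below all vehicle values (log2 fold change -0.52, SE 0.14, adjusted p = 0.0213). Pdia4, a disulphide isomerase, fell from 196 ± 24.5 to 139 ± 6.37 TPM (log2 fold change -0.49, SE 0.11, adjusted p = 0.0105). The number of falls in the list was as low as 2 without vehicle replicate 1 or without replicate 2 or 3 at 50 mg/kg, and with the 1.2-fold minimum none of the 27 passed. Of 20 genes of the heat shock response none rose and 3 fell, among them the chaperone gene Hsp90aa1, from 503 ± 38.7 to 324 ± 19.1 TPM (log2 fold change -0.63, SE 0.16, adjusted p = 0.0186), and 0 fell without vehicle replicate 1. The call of Hspa5 was lost without vehicle replicate 1 or 3 or replicate 2 or 3 at 50 mg/kg (log2 fold change -0.53 to -0.46, largest adjusted p = 0.0709), and that of Hsp90aa1 without vehicle replicate 1 or 3 or replicate 3 at 50 mg/kg (-0.62 to -0.60, largest adjusted p = 0.0549).

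The 300 bases around each start site, 250 before to 50 after, were searched in RefSeq promoter windows (GRCm38.p6) for short motifs on both strands, in 14205 windows of 11142 of the tested genes. The motif TGATGNAA, the form bound by ATF4 with C/EBP partners, was present in 2.37% of all windows, in 5.46% of the 824 windows of genes that rose and in 1.41% of the 638 windows of genes that fell. It was present in 20.7% of the windows of stress response regulators (6 of 29), 38.5% of those of cytosolic tRNA synthetases (5 of 13), 14.3% of those of amino acid enzymes (3 of 21) and 14.3% of those of transporters (4 of 28). A match is a sequence of letters only, and no binding was measured. The stretches around the motif are shown for 3 genes that rose, the glutathione-degrading Chac1, the stress protein gene Nupr1 and the tRNA synthetase gene Tars, with the motif in capitals as it reads on the strand of the gene.
Chac1 (chr2:119351009-119351096, plus strand): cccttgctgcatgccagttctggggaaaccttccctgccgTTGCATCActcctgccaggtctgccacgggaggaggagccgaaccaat
Nupr1 (chr7:126625533-126625620, minus strand): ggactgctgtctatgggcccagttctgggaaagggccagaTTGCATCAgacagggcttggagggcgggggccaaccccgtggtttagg
Tars (chr15:11399659-11399713, minus strand): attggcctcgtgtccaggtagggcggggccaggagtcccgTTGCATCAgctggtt
In each the capitals read as the reverse complement of the motif searched. Nupr1 was read at 159, 164, 116 and 99.6 TPM in vehicle and at 598, 467, 596 and 556 TPM at 50 mg/kg, groups that did not overlap (log2 fold change 2.06, SE 0.34, adjusted p = 0.000717).

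**Figure D2:**
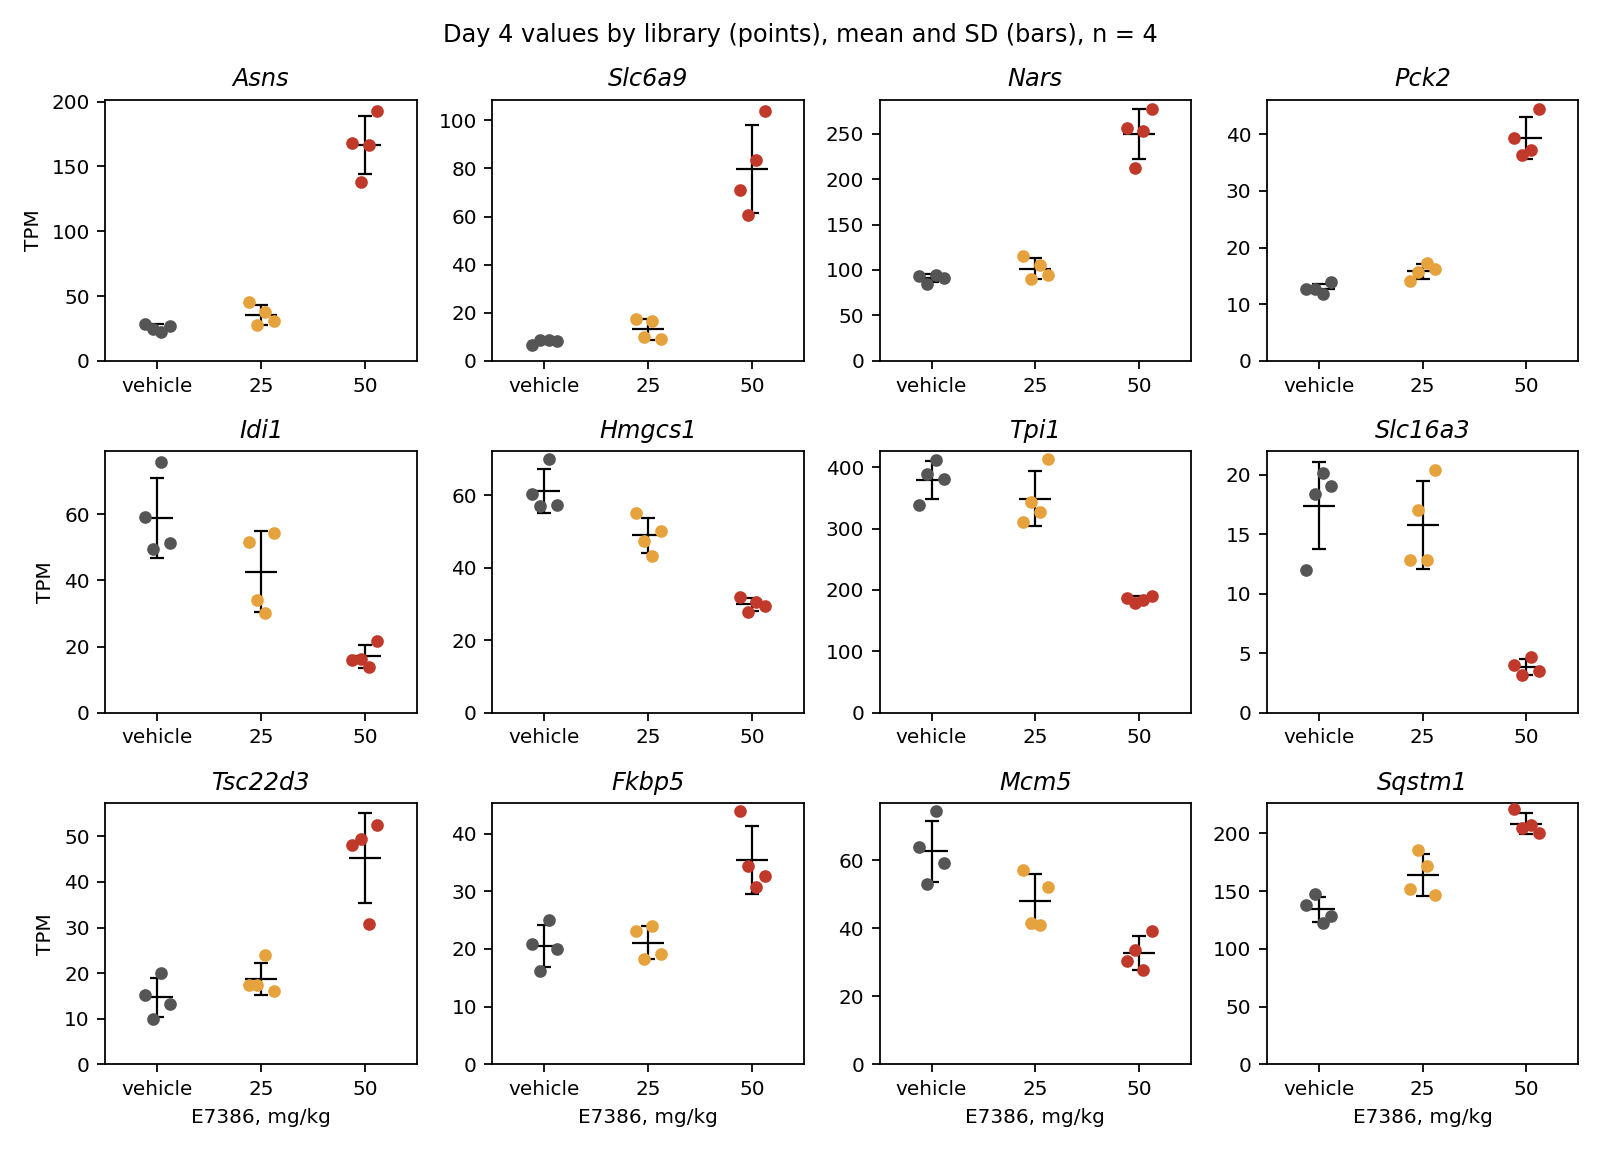
TPM in each day 4 library (points) with the mean and SD over 4 libraries (bars) for 12 genes, by dose of E7386 in mg/kg. For Asns the vehicle points lie at 22.3 to 28.3, the 25 mg/kg points at 27.7 to 45.7 and the 50 mg/kg points at 138 to 193; Idi1, Hmgcs1, Tpi1, Slc16a3 and Mcm5 are lower at 50 mg/kg than in vehicle.

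Genes of cholesterol synthesis fell along nearly the whole route. Of 23 genes of cholesterol synthesis and uptake tested 20 fell and none rose (87.0% called beside 9.26% of all genes). Their median was -0.88. Without single libraries 15 to 20 fell, and 7 with the 1.2-fold minimum. The 3 that did not pass were Tm7sf2, Ebp and Dhcr7, all of the later steps, at -0.20, -0.20 and 0.09. Idi1, which isomerises the isoprenoid unit (chr13:8885501-8892451, plus strand), was read at 59.1, 49.6, 75.9 and 51.2 TPM in vehicle and at 16.03, 16.3, 13.8 and 21.8 TPM at 50 mg/kg. The highest treated value, in replicate 4, was below the lowest vehicle value (log2 fold change -1.73, SE 0.25, adjusted p = 0.000143). Hmgcs1, an enzyme at the start of the route, fell from 61.1 ± 6.05 to 29.9 ± 1.80 TPM (log2 fold change -1.01, SE 0.16, adjusted p = 0.000331), and Fdft1, which commits the route to sterols, from 22.4 ± 1.87 to 10.6 ± 1.01 TPM (log2 fold change -1.02, SE 0.12, adjusted p = 2.17e-05). Fdps, which makes farnesyl diphosphate between them, fell from 73.5 ± 7.52 to 28.9 ± 3.15 TPM (log2 fold change -1.32, SE 0.20, adjusted p = 0.000291).

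Regulators of sterol balance moved in both directions. Srebf2, the main activator of the route, fell from 85.3 ± 2.99 to 60.4 ± 2.66 TPM (log2 fold change -0.49, SE 0.11, adjusted p = 0.00727), and Insig1, which retains SREBP in the endoplasmic reticulum and is itself an SREBP target, from 19.2 ± 4.36 to 5.85 ± 1.30 TPM (log2 fold change -1.55, SE 0.23, adjusted p = 0.00019). Abca1, which exports cholesterol, was read at 20.5, 22.9, 17.7 and 20.4 TPM in vehicle and at 46.1, 44.2, 41.8 and 28.2 TPM at 50 mg/kg. All treated values were higher, and replicate 4 was the lowest of them (log2 fold change 0.92, SE 0.22, adjusted p = 0.011). Nr1h3, the sterol-sensing receptor LXRα, rose from 6.02 ± 1.17 to 10.9 ± 1.38 TPM (log2 fold change 0.76, SE 0.17, adjusted p = 0.0081). Abca1, Abcg1 and Nr1h3 are also expressed by macrophages, whose marker list had a mean level of 4.62 to 5.51 in vehicle and 4.95 to 6.02 at 50 mg/kg, and the part of that level in these results was not tested. Of 20 genes of fatty acid synthesis 4 fell and 1 rose (25.0% called beside 9.26% of all genes). Without vehicle replicate 1, 3 or 4, or replicate 3 at 50 mg/kg, 2 fell. The desaturase gene Scd2 fell from 225 ± 20.2 to 112 ± 24.8 TPM (log2 fold change -1.02, SE 0.14, adjusted p = 0.000109) and the elongase gene Elovl6 from 12.3 ± 2.22 to 5.55 ± 1.10 TPM (log2 fold change -1.02, SE 0.21, adjusted p = 0.00568).

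The sterol motif TCACNCCAC was found in 1.11% of all windows and in 1 of 19 windows of the cholesterol list (5.26%), that of Hmgcs1, shown with the motif in capitals. The motif CCAAT, bound by NF-Y, was found in 37.6% of all windows and in 15 of those 19 (78.9%).
Hmgcs1 (chr13:119690174-119690262, plus strand): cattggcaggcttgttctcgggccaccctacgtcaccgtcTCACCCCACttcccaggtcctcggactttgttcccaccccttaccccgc

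Glycolysis was lower at most of its steps, together with other genes that HIF factors are known to activate. Of 24 genes of glycolysis and lactate export 15 fell and none rose, with a median of -0.56 (62.5% called beside 9.26% of all genes). Of 28 hypoxia-induced genes outside glycolysis 12 fell and 2 rose, with a median of -0.39 (50.0% called). Without single libraries 12 to 15 of the former and 11 to 12 of the latter fell, and with the 1.2-fold minimum 7 and 4. Tpi1, triose phosphate isomerase (chr6:124810586-124814296, minus strand), was read at 338, 388, 412 and 381 TPM in vehicle and at 187, 178, 183 and 191 TPM at 50 mg/kg. The treated values lay close together and far below the vehicle values (log2 fold change -1.03, SE 0.10, adjusted p = 6.62e-07). Pgam1, phosphoglycerate mutase, fell from 427 ± 29.3 to 225 ± 11.4 TPM (log2 fold change -0.92, SE 0.10, adjusted p = 7.07e-06) and Ldha, lactate dehydrogenase, from 556 ± 41.2 to 313 ± 26.8 TPM (log2 fold change -0.83, SE 0.11, adjusted p = 3.5e-05). The glucose transporter gene Slc2a1 and the phosphofructokinase gene Pfkl had log2 fold changes of -1.02 and -0.92, both past the threshold, whereas the hexokinase genes Hk1 and Hk2 did not pass at -0.14 and -0.29. Slc16a3, the lactate exporter MCT4 (chr11:120948480-120960868, plus strand), was read at 12.02, 18.4, 20.2 and 19.1 TPM in vehicle and at 4.04, 3.20, 4.64 and 3.47 TPM at 50 mg/kg. The lowest vehicle value, in replicate 1, was above every treated value (log2 fold change -1.91, SE 0.24, adjusted p = 3.39e-05).

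Among hypoxia genes outside glycolysis, Ankrd37 was read at 10.7, 10.6, 20.8 and 14.9 TPM in vehicle and at 3.77, 1.65, 3.81 and 3.08 TPM at 50 mg/kg (log2 fold change -1.89, SE 0.26, adjusted p = 0.000104). Its groups did not overlap and vehicle replicate 3 was the highest. Car9, a surface carbonic anhydrase, fell from 8.12 ± 2.01 to 2.69 ± 0.736 TPM (log2 fold change -1.30, SE 0.29, adjusted p = 0.0083), Egln3, a prolyl hydroxylase that marks HIF for degradation, from 109 ± 8.97 to 45.9 ± 5.11 TPM (log2 fold change -1.23, SE 0.20, adjusted p = 0.000625), Bnip3, a receptor that targets mitochondria for autophagy, from 40.7 ± 5.55 to 16.7 ± 4.78 TPM (log2 fold change -1.26, SE 0.24, adjusted p = 0.00266), and Cox4i2, a hypoxic subunit of cytochrome oxidase, from 9.47 ± 2.99 to 3.37 ± 1.18 TPM (log2 fold change -1.25, SE 0.26, adjusted p = 0.00546). Vegfa, the vascular growth factor, was read at 111, 150.0, 203 and 191 TPM in vehicle and at 109.7, 79.5, 117 and 133 TPM in treated tumours. These ranges overlapped, through vehicle replicate 1, and the test was not passed (log2 fold change -0.56, SE 0.24, adjusted p = 0.139). The 2 members that rose were Angptl4, a lipase inhibitor that PPAR factors and glucocorticoids also induce, from 21.1 ± 5.29 to 58.6 ± 3.52 TPM (log2 fold change 1.46, SE 0.17, adjusted p = 1.21e-05), and Bhlhe41, a clock repressor (0.46). None of 8 genes for HIF subunits and partners passed. Hif1a had means of 63.5 ± 2.01 TPM without and 63.9 ± 6.27 TPM with the drug (log2 fold change 0.00, SE 0.11, adjusted p = 0.988).

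The core of the hypoxia response element, ACGTG or GCGTG, is short and was present in 60.1% of all windows and in 68.0% of those of genes that fell. It was present in 22 of 28 windows of the hypoxia list (78.6%) and in 28 of 36 of the glycolysis list (77.8%), but also in all of those of the cytosolic tRNA synthetases, most of which rose. The stretches of Ankrd37 and Car9 that hold it are given with the core in capitals on either strand, and in Ankrd37 a copy on each strand overlaps the other.
Ankrd37 (chr8:45999958-46000042, minus strand): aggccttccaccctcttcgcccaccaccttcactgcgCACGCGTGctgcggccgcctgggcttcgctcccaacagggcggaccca
Car9 (chr4:43506968-43507025, plus strand): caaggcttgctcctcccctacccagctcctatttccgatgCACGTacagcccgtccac

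Of 30 nuclear-encoded subunits of the respiratory chain 5 fell and none rose (16.7% called beside 9.26% of all genes), 28 had a negative sign and the median was -0.12. The falls numbered 2 without replicate 2 at 50 mg/kg and 3 without replicate 3 at that dose or vehicle replicate 1. All 13 mitochondrially encoded genes were short of the threshold. In the citric acid cycle and its shuttles, 1 of 18 genes rose, Ogdh, although not without vehicle replicate 3 or replicate 2 or 3 at 50 mg/kg, and 1 fell, Mdh1, the cytosolic malate dehydrogenase. This share of 11.1% called is near the 9.26% of all genes, and nothing is read from it about the list. Mdh1 was read at 141, 133, 132 and 132 TPM in vehicle and at 98.9, 95.4, 82.3 and 89.7 TPM at 50 mg/kg, groups that did not overlap (log2 fold change -0.55, SE 0.07, adjusted p = 2.35e-05). Of 18 genes listed for fatty acid oxidation 5 rose and none fell (27.8% called beside 9.26% of all genes), with a median of 0.23. They were Cpt1a and Hadhb, and Pdk4, Angptl4 and Plin2, which are not oxidation enzymes. With the 1.2-fold minimum 2 rose, Angptl4 and Pdk4, and Cpt1a and Hadhb were lost. Angptl4 is also counted among the hypoxia genes. Cpt1a, the enzyme that admits fatty acids to mitochondria, was read at 40.7, 45.9, 35.8 and 45.7 TPM in vehicle and at 67.7, 72.7, 82.1 and 61.8 TPM in treated tumours. All treated values were higher (log2 fold change 0.74, SE 0.14, adjusted p = 0.00209). Pdk4, which restrains pyruvate oxidation, rose from 3.51 ± 0.594 to 11.4 ± 4.25 TPM (log2 fold change 1.40, SE 0.20, adjusted p = 0.000129).

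**Figure D3:**
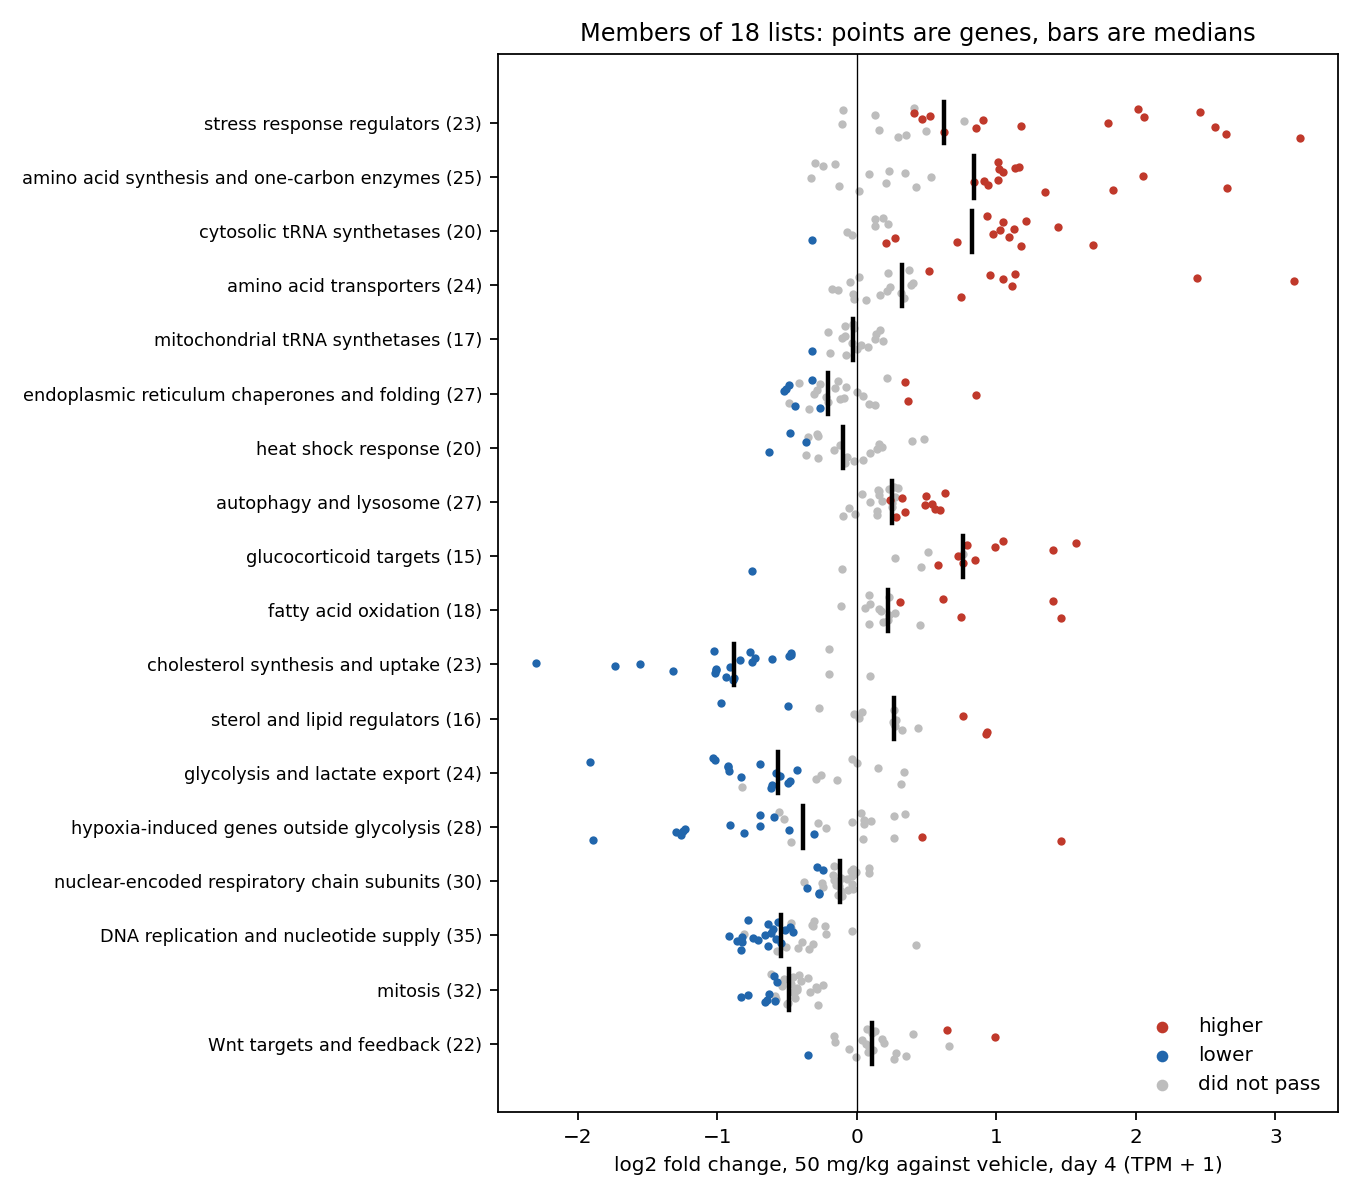
Log2 fold change at 50 mg/kg against vehicle on day 4 (horizontal axis, TPM + 1) for the members of 18 gene lists, with the number tested in brackets and the median as a bar. Cytosolic tRNA synthetases (median 0.83) lie to the right of mitochondrial ones (-0.03), and cholesterol genes (-0.88) and glycolysis genes (-0.56) lie to the left of 0.

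Of 15 listed targets of the glucocorticoid receptor 9 rose and 1 fell, with a median of 0.76. The share called was 66.7% beside 9.26% of all genes. Without single libraries 7 to 9 rose, and 3 with the 1.2-fold minimum. Tsc22d3, which codes for the anti-inflammatory protein GILZ (chrX:140539528-140600659, minus strand), was read at 15.3, 10.03, 20.1 and 13.3 TPM in vehicle and at 48.1, 49.5, 30.8 and 52.5 TPM at 50 mg/kg. The treated values were all above the vehicle values, with replicate 3 nearest to them (log2 fold change 1.57, SE 0.20, adjusted p = 3.34e-05). Fkbp5, a co-chaperone of the receptor, stood at 20.9, 16.1, 25.1 and 20.04 TPM in vehicle and at 43.9, 34.3, 30.8 and 32.6 TPM in treated tumours. These groups did not overlap (log2 fold change 0.76, SE 0.14, adjusted p = 0.00146). The kinase gene Sgk1 rose from 108 ± 5.61 to 189 ± 26.5 TPM (log2 fold change 0.79, SE 0.18, adjusted p = 0.01) and the transcription factor gene Klf9 from 15.9 ± 0.967 to 29.5 ± 1.96 TPM (log2 fold change 0.85, SE 0.13, adjusted p = 0.000411). Zbtb16, a zinc finger gene that glucocorticoids induce strongly, was scarce at 0.230, 0.150, 0.470 and 0.10 TPM in vehicle and reached 3.52, 1.49, 0.500 and 1.49 TPM at 50 mg/kg, with replicate 3 close to the vehicle range (log2 fold change 1.05, SE 0.25, adjusted p = 0.0127). The metallothionein gene Mt1 passed although replicate 2 at 50 mg/kg lay inside the vehicle range (log2 fold change 0.72, SE 0.20, adjusted p = 0.0312). Its call was lost without vehicle replicate 1 or 2 or replicate 1, 3 or 4 at 50 mg/kg (0.61 to 0.70, largest adjusted p = 0.0991). The member that fell was Cdkn1c, a cell cycle inhibitor (log2 fold change -0.75, SE 0.23, adjusted p = 0.0472), and it did not pass when any 1 of the 8 libraries was left out (-0.84 to -0.60, largest adjusted p = 0.149).

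Of 17 clock genes 4 rose and none fell, a share of 23.5% beside 9.26% of all genes. When any 1 of the 8 libraries was left out 4 rose, and with the 1.2-fold minimum 1 did. Per1, a repressor of the clock and a glucocorticoid target, rose from 21.6 ± 5.04 to 43.6 ± 8.34 TPM (log2 fold change 0.99, SE 0.19, adjusted p = 0.00299). Nr1d1, the nuclear receptor REV-ERBα, was read at 10.8, 11.7, 11.4 and 9.59 TPM in vehicle and at 20.5, 22.5, 21.9 and 17.3 TPM at 50 mg/kg, groups that did not overlap (log2 fold change 0.86, SE 0.13, adjusted p = 0.000198). The hour at which tumours were collected is not given in the sources used here, and its part in these results was not tested. Txnip, which limits glucose uptake, was read at 108, 121, 84.9 and 94.3 TPM in vehicle and at 284, 424, 205 and 217 TPM in treated tumours. All treated values were higher, replicate 2 by the most (log2 fold change 1.41, SE 0.33, adjusted p = 0.0116).

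Of 27 genes of autophagy and the lysosome 10 rose, 17 did not pass and none fell, a share of 37.0% beside 9.26% of all genes, with a median of 0.25. The count ranged from 6 without replicate 3 at 50 mg/kg to 11, and with the 1.2-fold minimum it was 0. Sqstm1, the cargo receptor p62, was read at 138, 148, 123 and 129 TPM in vehicle and at 221, 205, 208 and 200.3 TPM at 50 mg/kg. The groups did not overlap (log2 fold change 0.64, SE 0.12, adjusted p = 0.00299). Map1lc3b, the membrane marker LC3B, rose from 129 ± 11.02 to 183 ± 9.46 TPM (log2 fold change 0.50, SE 0.10, adjusted p = 0.00354), Lamp2, a lysosomal membrane protein gene, from 156 ± 5.60 to 196 ± 10.7 TPM (log2 fold change 0.33, SE 0.08, adjusted p = 0.0116) and Fnip2, a regulator of nutrient signalling at the lysosome, from 10.3 ± 0.439 to 15.4 ± 1.41 TPM (log2 fold change 0.54, SE 0.11, adjusted p = 0.00305). The macrophage list, whose cells are rich in lysosomes, had 21 of 22 members short of the threshold and a median of 0.63, and its part in these rises was not tested. Of 20 targets of NRF2, the main activator of antioxidant genes, 1 rose, Slc7a11, and 3 fell, or 1 without vehicle replicate 1 or 4 or replicate 3 at 50 mg/kg. Nqo1, a quinone reductase, was read at 27.4, 24.5, 26.9 and 29.6 TPM in vehicle and at 15.99, 17.2, 17.7 and 17.7 TPM in treated tumours, all of them lower (log2 fold change -0.63, SE 0.09, adjusted p = 8.01e-05).

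Of 14 genes of iron handling 1 rose and 1 fell, a share of 14.3% beside 9.26% of all genes, from which nothing is read about the list. Ncoa4, the receptor that delivers ferritin to autophagy, rose from 45.6 ± 1.83 to 59.9 ± 1.88 TPM (log2 fold change 0.39, SE 0.06, adjusted p = 0.000219). Tfrc, the transferrin receptor, was read at 23.1, 32.4, 53.1 and 37.1 TPM in vehicle and at 14.9, 13.8, 14.2 and 21.1 TPM at 50 mg/kg, groups that did not overlap (log2 fold change -1.10, SE 0.21, adjusted p = 0.00304). Tfrc is also abundant in erythroid precursors. The erythroid list had a mean level of 3.95 to 4.15 in vehicle and of 2.32, 1.44, 1.65 and 4.40 in replicates 1 to 4 at 50 mg/kg, with a median log2 fold change of -1.77, and its part in the fall of Tfrc was not tested. Without replicate 4 at 50 mg/kg 5 of the 6 erythroid genes tested were lower, against 1, Tfrc, with it. In bulk tissue, fewer cells of a type and less RNA per cell cannot be told apart.

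Of 35 genes of DNA replication and nucleotide supply 19 fell and none rose (54.3% called beside 9.26% of all genes). A negative sign was seen for 34 of them, and the median was -0.54. Of 32 mitotic genes 8 fell and 24 did not pass, all 32 had a negative sign, 28 had treated values entirely below the vehicle values (7.98% of all genes) and the median was -0.49. These counts depended on single libraries, falling to 10 and 1 without vehicle replicate 3 or without replicate 3 at 50 mg/kg, and the mitotic count was 2 or 3 without vehicle replicate 1 or 4 or replicate 1 or 2 at 50 mg/kg. With the 1.2-fold minimum no gene of either list passed. Mcm5, a subunit of the replicative helicase (chr8:75109569-75128439, plus strand), was read at 63.8, 52.98, 74.5 and 59.3 TPM in vehicle and at 30.3, 33.6, 27.8 and 39.2 TPM at 50 mg/kg. Vehicle replicate 3 was the highest and the groups did not overlap (log2 fold change -0.92, SE 0.21, adjusted p = 0.00879). Mcm4 of the same helicase fell from 48.04 ± 7.34 to 26.5 ± 1.99 TPM (log2 fold change -0.83, SE 0.16, adjusted p = 0.00244), Lig1, DNA ligase 1, from 85.7 ± 12.8 to 46.9 ± 9.26 TPM (log2 fold change -0.86, SE 0.16, adjusted p = 0.00228) and Orc6, of the origin recognition complex, from 25.1 ± 2.05 to 15.99 ± 0.215 TPM (log2 fold change -0.62, SE 0.13, adjusted p = 0.00576).

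Ccnb2, a cyclin of mitotic entry, was read at 60.4, 55.2, 56.5 and 59.4 TPM in vehicle and at 32.9, 31.6, 27.6 and 36.7 TPM at 50 mg/kg, a clear separation (log2 fold change -0.83, SE 0.18, adjusted p = 0.00566). Mki67, the proliferation marker, stood at 120.1, 114, 159 and 147 TPM in vehicle and at 80.8, 96.98, 80.6 and 103 TPM in treated tumours. The groups did not overlap and the test was narrowly passed (log2 fold change -0.57, SE 0.18, adjusted p = 0.0451). Of 18 cyclins, kinases and inhibitors 2 rose and 5 fell, a share of 38.9% beside 9.26% of all genes. Among them Cdkn2b, an inhibitor of CDK4, rose from 48.4 ± 6.71 to 87.1 ± 12.2 TPM (log2 fold change 0.83, SE 0.24, adjusted p = 0.0326), and Cdk4 fell from 632 ± 31.2 to 479 ± 27.7 TPM (log2 fold change -0.40, SE 0.11, adjusted p = 0.0266). None of the 18 passed without vehicle replicate 1 or 3 or replicate 3 at 50 mg/kg. Mki67 was lost in 6 of the 8 analyses without a library, all but those without vehicle replicate 2 or replicate 4 at 50 mg/kg (-0.62 to -0.49, largest adjusted p = 0.142), and Cdkn2b in 6, all but those without replicate 2 of either group (0.74 to 0.86, largest adjusted p = 0.101). Cdk4 was lost without vehicle replicate 1, 3 or 4 or replicate 2 or 3 at 50 mg/kg (-0.41 to -0.37, largest adjusted p = 0.0759). The E2F motifs TTTCGCGC and TTTGGCGC were found in 1.44% of all windows, in 3.76% of those of genes that fell and in 11 of 36 windows of the replication list (30.6%). The motif TTTGAA of cell cycle genes was found in 12.4% of all windows and in 22 of 29 windows of the mitosis list (75.9%). The Mcm5 stretch shown holds the E2F letters on both strands, overlapping each other, in capitals.
Mcm5 (chr8:75109320-75109407, plus strand): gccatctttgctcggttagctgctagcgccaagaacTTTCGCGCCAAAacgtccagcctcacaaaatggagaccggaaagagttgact

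Of 22 Wnt targets and feedback genes tested 2 rose, Notum and Wif1, and 1 fell, Ccnd1, with a median of 0.11. This was 13.6% called beside 9.26% of all genes, and nothing is read from it about the list. Axin2, the most general target of β-catenin, was read at 47.5, 50.8, 39.8 and 54.7 TPM in vehicle and at 42.9, 61.8, 52.1 and 37.5 TPM at 50 mg/kg. The ranges overlapped on both sides and no difference was detected (log2 fold change -0.01, SE 0.16, adjusted p = 0.988). Notum, a secreted enzyme that inactivates Wnt ligands, stood at 14, 20.1, 9.48 and 18.1 TPM in vehicle and at 40.6, 24.3, 33.96 and 25.6 TPM in treated tumours, with no overlap (log2 fold change 0.99, SE 0.27, adjusted p = 0.0269). Wif1, a secreted Wnt inhibitor, rose from 237 ± 21.96 to 379 ± 93.7 TPM (log2 fold change 0.65, SE 0.16, adjusted p = 0.0138), although replicate 2 at 50 mg/kg lay inside the vehicle range. Ccnd1, the gene of cyclin D1, fell from 667 ± 17.9 to 524 ± 20 TPM (log2 fold change -0.35, SE 0.10, adjusted p = 0.0351). These 3 calls depended on single libraries. Ccnd1 did not pass when any 1 of the 8 was left out (-0.37 to -0.33, largest adjusted p = 0.0951), Notum was lost without vehicle replicate 1 or 3 or replicate 1 or 3 at 50 mg/kg (0.79 to 0.96, largest adjusted p = 0.104) and Wif1 without replicate 3 at 50 mg/kg (0.52, adjusted p = 0.062). Myc did not pass (log2 fold change -0.16, SE 0.15, adjusted p = 0.54) and Lef1 was near the filter at 0.460 ± 0.164 and 1.47 ± 1.04 TPM (log2 fold change 0.66, SE 0.25, adjusted p = 0.103).

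Neither partner of the interaction that E7386 is known to modulate changed past the threshold at the RNA level. Ctnnb1, the gene of β-catenin, was read at 559.7, 629, 506 and 561 TPM in vehicle and at 629, 671, 665 and 645 TPM at 50 mg/kg. The treated value of replicate 1 lay just inside the vehicle range and the other 3 above it (log2 fold change 0.21, SE 0.10, adjusted p = 0.166). Crebbp stood at 41.3 ± 3.38 TPM in vehicle and 45.2 ± 4.76 TPM in treated tumours (log2 fold change 0.12, SE 0.11, adjusted p = 0.501) and Ep300, which codes for p300, at 31.7 ± 2.84 and 36.2 ± 1.97 TPM (log2 fold change 0.19, SE 0.10, adjusted p = 0.244). Of 20 genes of the β-catenin complex and its coactivators Csnk1a1, a kinase that marks β-catenin for degradation, rose (log2 fold change 0.22, SE 0.05, adjusted p = 0.0138) and Dvl2, a relay of Wnt receptors, fell (-0.23). Csnk1a1 was lost without vehicle replicate 1 or replicate 3 at 50 mg/kg (0.19, largest adjusted p = 0.0547), and Dvl2 when any 1 of the 8 libraries was left out (-0.25 to -0.20, largest adjusted p = 0.138). Of 24 ligands and receptors 3 rose, Fzd1, Wnt7b and the receptor gene Ryk, and 1 fell, the receptor gene Fzd2. That is 16.7% called beside 9.26% of all genes. The rises numbered 1 without vehicle replicate 4 or replicate 3 or 4 at 50 mg/kg, where Ryk was among the calls lost, and none fell without vehicle replicate 2, 3 or 4 or replicate 2 or 4 at 50 mg/kg. The receptor gene Fzd1 was read at 45.9, 52, 35.6 and 44.2 TPM in vehicle and at 71.4, 79.8, 73.5 and 68.1 TPM at 50 mg/kg, with no overlap (log2 fold change 0.72, SE 0.16, adjusted p = 0.00877), and the ligand gene Wnt7b rose from 11.4 ± 2.02 to 24.6 ± 4.50 TPM (log2 fold change 1.05, SE 0.31, adjusted p = 0.0405). The call of Wnt7b was kept only without replicate 2 of either group and otherwise lost (0.96 to 1.05, largest adjusted p = 0.114).

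Among further signalling genes, Spry1, a feedback inhibitor of growth factor signalling, was read at 58.7, 55.8, 58.5 and 62.1 TPM in vehicle and at 92.3, 96.2, 114 and 126 TPM at 50 mg/kg, a group entirely above vehicle (log2 fold change 0.84, SE 0.15, adjusted p = 0.00118). Klf6, a zinc finger gene of the early response, rose from 32.3 ± 2.81 to 57.5 ± 4.63 TPM (log2 fold change 0.81, SE 0.12, adjusted p = 0.000198). Artn, a ligand of the GDNF family, stood at 1.12, 2.32, 3.35 and 1.53 TPM in vehicle and at 7.76, 8.07, 14.5 and 14.6 TPM in treated tumours, with all treated values higher (log2 fold change 1.99, SE 0.29, adjusted p = 0.000146). Stc2, a secreted glycoprotein gene of the stress list, rose from 2.93 ± 1.36 to 21.4 ± 11.3 TPM (log2 fold change 2.46, SE 0.35, adjusted p = 0.000128). Timp3, an inhibitor of matrix metalloproteinases, rose from 238 ± 44.4 to 460.4 ± 67.5 TPM (log2 fold change 0.95, SE 0.21, adjusted p = 0.00758), while Adamts4, a matrix protease that such inhibitors act on, fell (log2 fold change -0.68, SE 0.14, adjusted p = 0.00407). Has2, which makes hyaluronan, was read at 25.8, 30.8, 24.6 and 30.1 TPM in vehicle and at 10.1, 8.78, 8.75 and 15.7 TPM at 50 mg/kg, all lower than in vehicle (log2 fold change -1.32, SE 0.24, adjusted p = 0.00148).

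Other large falls included Fgfbp1, a carrier that releases fibroblast growth factors, read at 25.2, 24.5, 18.8 and 19.7 TPM in vehicle and at 6.30, 6.27, 8.01 and 8.42 TPM at 50 mg/kg. The separation was complete (log2 fold change -1.48, SE 0.24, adjusted p = 0.000658). Prss35, a gene of the trypsin-like protease family, fell from 5.35 ± 1.94 to 0.833 ± 0.224 TPM (log2 fold change -1.75, SE 0.21, adjusted p = 1.43e-05) and Espn, an actin-bundling protein gene, from 35.7 ± 9.41 to 13.97 ± 1.69 TPM (log2 fold change -1.27, SE 0.25, adjusted p = 0.00291). Aire, known as the regulator of self antigens in the thymus, was read at 9.79, 12.5, 54.3 and 32.2 TPM in vehicle, where the libraries differed widely, and at 2.09, 0.920, 3.95 and 8.02 TPM in treated tumours (log2 fold change -2.50, SE 0.57, adjusted p = 0.00936). The treated values were still all below the vehicle values. The noncoding 7S RNA gene Rn7s2 had the largest fall (log2 fold change -4.10, SE 1.07, adjusted p = 0.0206) with vehicle values of 25.97, 44.8, 35.4 and 46.1 TPM and treated values of 0, 0, 23.7 and 0 TPM, but it has near-identical copies among which reads may be split, and it is uncertain. Fam180a rose from 1.92 ± 0.791 to 9.14 ± 6.95 TPM (log2 fold change 1.62, SE 0.50, adjusted p = 0.0468). Rn7s2 was lost without vehicle replicate 4 or replicate 1, 2 or 4 at 50 mg/kg (-3.99 to -3.71, largest adjusted p = 0.0598), and Fam180a in all but the analysis without replicate 4 at 50 mg/kg (1.21 to 1.79, largest adjusted p = 0.153).

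Some of these genes share their place in the genome with another gene. Slc6a9, Atf5, Aldh1l2, Ankrd37, Has2, Car9, Fdft1, Tpi1, Mdh1, Sqstm1, Map1lc3b, Lig1, Orc6, Cdk4, Ccnd1, Nr1d1, Adamts4, Ctnnb1, Lars and Txnip overlap a gene on the opposite strand that reached a mean of 1 TPM, and Cebpg, Mertk, Fdps and Map1lc3b overlap one on the same strand. The libraries were strand-specific per the labels' protocols, but whether strand was used in counting is not given in the sources used here, so the values of these genes are uncertain to that extent.

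Among markers of tumour epithelium, none of 13 keratins passed, yet 12 had a positive sign, the median was 0.41 and the list mean was higher in all 4 libraries at 50 mg/kg than in all 4 vehicle libraries. At 25 mg/kg on day 4 the list mean was 7.45 to 7.66, also above the 7.02 to 7.26 of vehicle. On day 8 the median at 50 mg/kg was -0.17, although 3 keratins were called higher. None of 18 luminal markers passed, and of 18 basal markers 2 rose and 1, Sox10, fell (16.7% called beside 9.26% of all genes). Sox10 was lost in 6 of the 8 analyses without a library, all but those without replicate 2 of either group. Itgb4, the hemidesmosome integrin of basal cells, rose from 92.3 ± 10.8 to 145 ± 16.5 TPM (log2 fold change 0.65, SE 0.12, adjusted p = 0.00269). Of 19 fibroblast and collagen genes none passed, and the median was 0.04. Of 22 endothelial genes 2 fell, the tip cell ligand Apln and the growth factor gene Pgf, and the median was 0.13. This share of 9.09% called is near the 9.26% of all genes, and nothing is read from it about the list. Without vehicle replicate 3 or 4 or replicate 2 or 3 at 50 mg/kg Apln was lost and 1 gene, Pgf, fell. Of 22 macrophage genes 1 rose (4.55%), Mertk, a receptor for dying cells, read at 6.66, 6.32, 8.87 and 7.36 TPM in vehicle and at 14.4, 16.6, 9.75 and 10.2 TPM at 50 mg/kg (log2 fold change 0.70, SE 0.19, adjusted p = 0.026). It was lost without vehicle replicate 1, 2 or 4 or replicate 1 or 2 at 50 mg/kg (0.58 to 0.71, largest adjusted p = 0.0851), and without replicate 4 at 50 mg/kg 5 macrophage genes rose. Replicate 1 had the highest macrophage level within vehicle, 25 mg/kg and 50 mg/kg alike. Skeletal muscle genes had a median of 1.11 with none past the threshold, and their list mean ranged from 0.56 to 3.51 in vehicle and from 0.61 to 5.13 at 50 mg/kg. With the muscle level as a covariate 1646 genes were called.

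**Figure D4:**
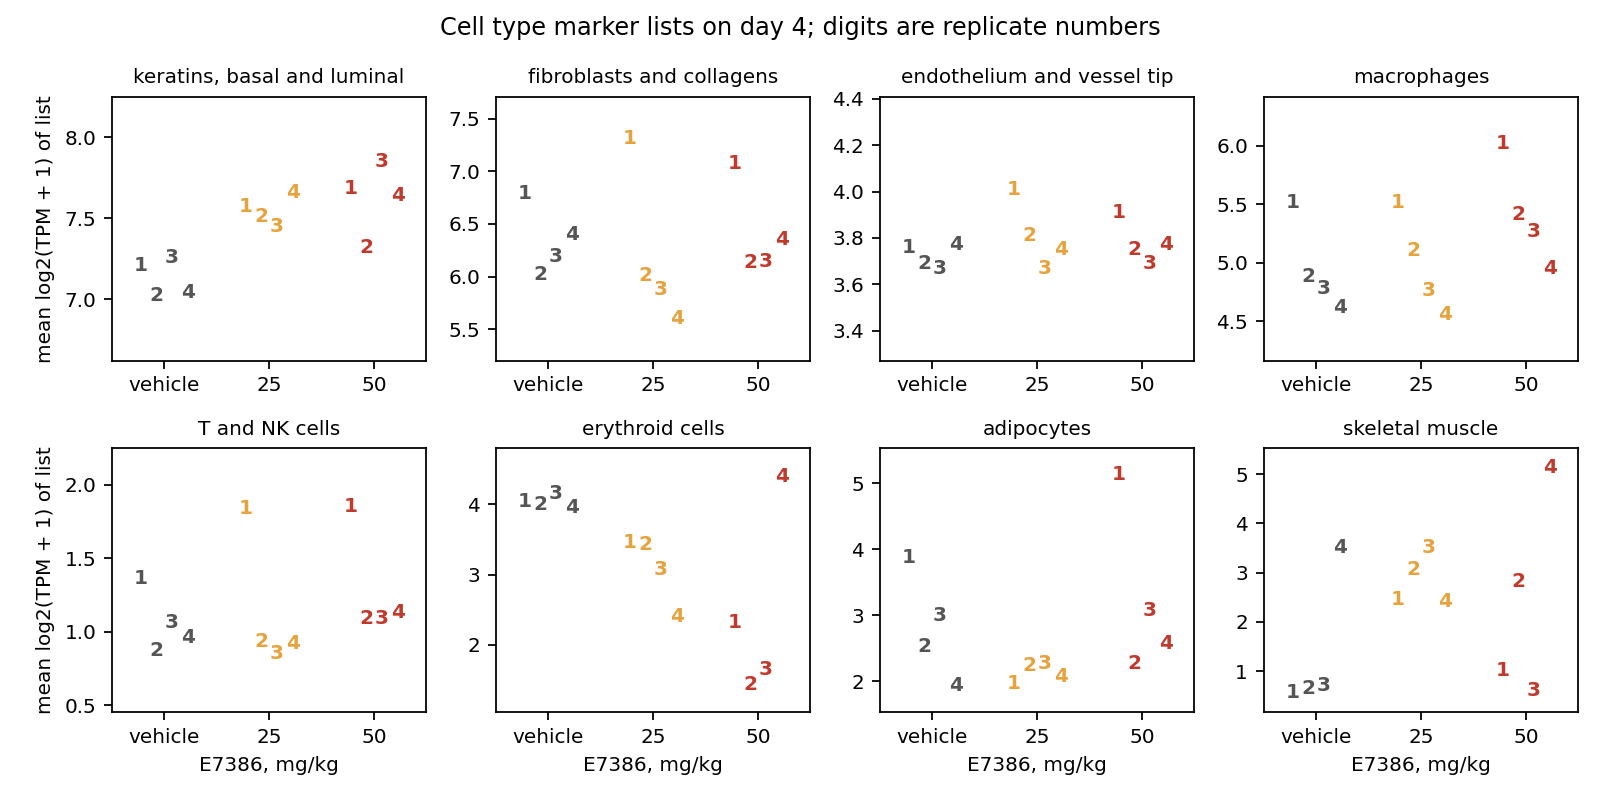
Mean log2(TPM + 1) of 8 marker lists (vertical axes) in each day 4 library by dose of E7386 in mg/kg, with the replicate number as the plotted symbol. The erythroid list lies at 3.95 to 4.15 in vehicle and at 1.44 to 2.32 in 3 of the 4 libraries at 50 mg/kg, and replicate 4 stands at 4.40; skeletal muscle ranges from 0.61 to 5.13 at 50 mg/kg.

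The lower dose of 25 mg/kg on day 4 gave no gene past the threshold against the same vehicle libraries (0.00% called, limma, smallest adjusted p = 0.914). At an unadjusted p under 0.05 there were 724 of 15736 genes, no more than the 5% expected if none changed. Tested directly, 50 mg/kg differed from 25 mg/kg at 339 genes (2.15%), 181 higher (1.15%) and 158 lower (1.00%). Since this contrast and the one against vehicle share the 50 mg/kg libraries, their values are given side by side only. At 25 mg/kg Asns was read at 45.7, 27.7, 37.5 and 31.01 TPM, above vehicle except for the overlap of replicate 2, and the log2 difference between the doses was 2.21 (adjusted p = 3.04e-08). Slc6a9 stood at 17.5, 9.89, 16.4 and 9.02 TPM, all above the vehicle values and far below those at 50 mg/kg (difference 2.53, adjusted p = 2.01e-06). Tpi1 was read at 311, 344, 327 and 414 TPM (difference -0.91, adjusted p = 6.03e-06), Idi1 at 51.7, 34.2, 30.3 and 54.5 TPM (-1.25, adjusted p = 0.00767) and Fkbp5 at 23.1, 18.2, 24.1 and 19.1 TPM (0.72, adjusted p = 0.00521).

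By list, the difference between doses passed for 11 of 25 amino acid enzymes, 11 of 20 cytosolic tRNA synthetases and 12 of 23 stress regulators. It passed for 12 of 24 glycolysis genes, 12 of 28 hypoxia genes, 9 of 23 cholesterol genes and 5 of 15 glucocorticoid targets. For replication it passed for 1 of 35 genes and for mitosis for none of 32. The share over all genes was 2.15%. The list medians at 25 mg/kg were 0.02 for amino acid enzymes, 0.03 for cytosolic tRNA synthetases, 0.20 for stress regulators, -0.10 for glycolysis, 0.04 for hypoxia genes, -0.26 for cholesterol genes and 0.25 for glucocorticoid targets. The count of 339 fell to 148 without replicate 4 at 25 mg/kg, to 193 without replicate 3 at 50 mg/kg and to 207 without replicate 4 at 50 mg/kg.

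On day 8, in 8 other libraries, 438 genes differed between 50 mg/kg and vehicle (2.78%), 120 higher and 318 lower. Of the 779 genes that rose on day 4, 70.7% had a positive sign on day 8, beside 44.6% of all genes. On day 8 37 of them were called higher (4.75%), beside 0.763% of all genes. Of the 678 that fell, 75.2% had a negative sign on day 8, beside 55.4% of all genes. On day 8 72 of these were called lower (10.6%), beside 2.02% of all genes. The groups divided by how far the change was still seen. Of 24 glycolysis genes 14 were lower on day 8, with a median of -0.53, and of 28 hypoxia genes 16 were lower, with a median of -0.70. Slc16a3 had a log2 fold change of -1.90 on day 8 (adjusted p = 0.000226), Ankrd37 of -2.54 (adjusted p = 2.05e-05) and Vegfa, which had not passed on day 4, of -1.76 (adjusted p = 0.000313). The difference of the Vegfa effects between days was itself not past the threshold (-1.20, adjusted p = 0.0741).

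For the amino acid response the effect was smaller on day 8, and this difference was tested as an interaction, which passed for 226 genes (1.44%), 55 with a more positive and 171 with a more negative effect on day 8. It passed for 11 of 20 cytosolic tRNA synthetases, 9 of 23 stress regulators, 6 of 25 amino acid enzymes and 4 of 24 transporters. On day 8 itself the medians of these lists were 0.13, 0.03, 0.12 and 0.03, in that order. In the same order 2, 1, 1 and 1 members were called higher on day 8, and 1 stress regulator was called lower. The interaction subtracts the day 4 effect, and choosing genes for a large day 4 effect favours a smaller one on day 8. Asns on day 8 was read at 25.2, 21.1, 24.1 and 19.4 TPM in vehicle and at 48.1, 38.9, 47.8 and 54.98 TPM at 50 mg/kg, still without overlap (log2 fold change 1.04, adjusted p = 0.00109). Its effect was smaller than on day 4 (interaction -1.61, adjusted p = 0.000617). Nars had a log2 fold change of 0.36 on day 8 (interaction -1.08, adjusted p = 0.00014). None of the 23 cholesterol genes passed on day 8, where their median was -0.12, and the interaction passed for 5. Idi1 on day 8 had a log2 fold change of -0.16 (interaction 1.58, adjusted p = 0.0289). None of 35 replication genes passed on day 8, with a median of 0.01, and since the interaction passed for none of them their effects were not shown to differ between days. Among the 15 glucocorticoid targets 3 were called higher on day 8, and the interaction passed for 1. Their median was 0.11 on day 8 beside 0.76 on day 4. Tsc22d3 was still higher (log2 fold change 1.08, adjusted p = 0.00421), with an interaction short of the threshold (-0.49, adjusted p = 0.405). The interaction count ranged from 92 without vehicle replicate 1 of day 4 to 601 without vehicle replicate 3 of day 8.

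**Figure D5:**
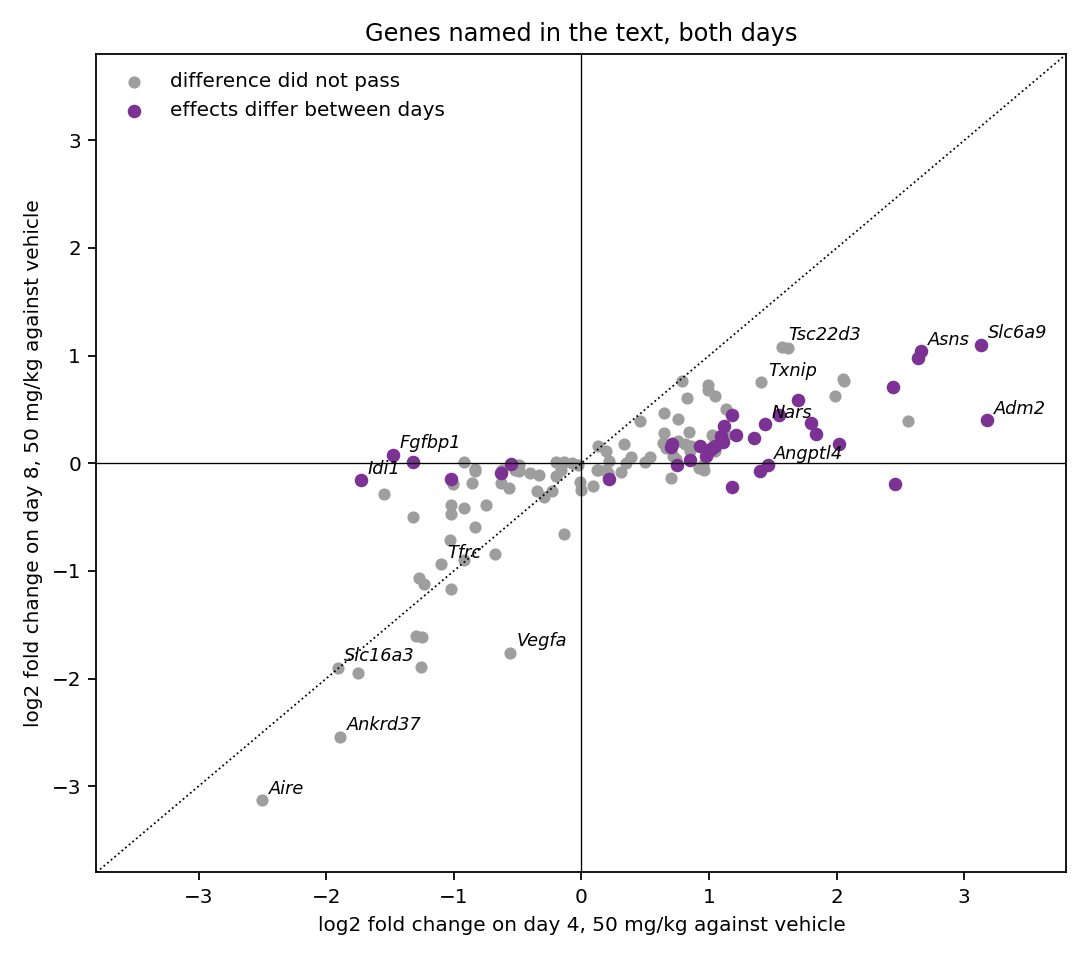
Log2 fold change at 50 mg/kg against vehicle on day 4 (horizontal axis) and day 8 (vertical axis) for genes named in the text, with the dotted line marking equal effects and purple points the genes whose effects differ between days (limma, adjusted p under 0.05). Slc6a9 and Asns lie below the line, at 3.13 and 2.66 on day 4 and 1.10 and 1.04 on day 8, and Slc16a3 lies on it, at -1.91 and -1.90.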

How the data were processed

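RNA-seq of tumour tissue was deposited by the authors as a table of TPM per gene, a unit scaled to the same total in each library that keeps no depth. Per the labels' protocols, RNA was purified with RNeasy and 1 µg went into strand-specific libraries. The submitters' processing notes name bcl2fastq, Trimmomatic 0.36, STAR 2.5.0c and RSEM 1.2.31, with builds mm10 and GRCm38. All 24 value columns matched a labelled sample, and 0 columns were left unused.

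From the TPM, log2(TPM + 1) was fitted in limma 3.58.1 (R 4.3.3) with 6 group means over 24 libraries and an intensity trend, two-sided, adjusted over the 15736 genes tested. Fold changes are on that scale and understate those of low genes. The fit was tested on simulated data. No sequencing batch is given in the labels. Coordinates are those of GENCODE M21, which matched 47310 of 47729 gene IDs. Promoter windows from RefSeq matched 11142 of the tested genes.

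The 62 gene lists and the genes named were chosen with earlier results of these data known, so the list counts carry no test. The rule named the 15 largest rises and falls (5 TPM or more in a group, no overlap, predicted genes, pseudogenes and receptor segments left out), up to 4 called members per list with the smallest adjusted p, or 1 where none passed, and 13 genes always. A further 43 genes were chosen after their values were seen. Not every gene named by this rule is reported here. Other scalings, filters, pseudocounts, weights and left-out libraries were tried as alternatives. Same-numbered replicates of the compared groups had deviations correlated by 0.35, 0.14, -0.07 and 0.17, so the numbers were not taken as pairs.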

Additional observations from a re-analysis of the deposited data

Results flagged for a closer look

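For 37 genes the effect of 50 mg/kg differed between day 8 and day 4 in the test of the difference itself (limma, adjusted p under 0.05), among 136 genes described. Over all genes tested the share was 1.44%. Many of the 136 were named for their day 4 change, which this contrast subtracts. That choice favours a difference of the opposite sign, so the count and the signs are given as a description only. The differences, day 8 minus day 4 on the log2 scale, were negative for those of the 37 that rose on day 4. Among regulators and secreted stress proteins they were -2.78 for Adm2, -2.65 for Stc2, -1.84 for Trib3, -1.66 for Atf5, -1.43 for Eif4ebp1, -1.40 for Ddit3 and -0.82 for Cebpg. For enzymes they were -1.61 for Asns, -1.56 for Aldh1l2, -1.11 for Aldh18a1, -1.10 for Pck2 and -0.89 for Gpt2. For transporters they were -2.03 for Slc6a9, -1.73 for Slc7a11, -0.92 for Slc3a2 and -0.77 for Slc1a5. For tRNA synthetases they were -1.10 for Cars, -1.08 for Nars, -0.95 for Tars, -0.91 for Iars, -0.89 for Lars, -0.88 for Sars, -0.84 for Gars, -0.77 for Mars, -0.77 for Yars and -0.73 for Aars. For initiation factors and other genes they were -0.55 for Eif2s2, -0.53 for Eif1, -1.48 for Angptl4, -1.48 for Pdk4 and -0.36 for Csnk1a1.

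Those of the 37 that fell on day 4 gave positive differences. These were 1.58 for Idi1, 1.33 for Fdps and 0.87 for Fdft1 in cholesterol synthesis, and 1.56 for Fgfbp1, 0.55 for Mdh1 and 0.54 for Nqo1. Other falls were still seen on day 8, where the medians were -0.53 for glycolysis genes and -0.70 for hypoxia genes.

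A single library lay far from the other 3 of its group for 12 of 272 groups of 4 values, by Dixon's ratio above its 95% critical value, and chance gives about 1 in 20. At 50 mg/kg the high values of replicate 4 were 339.24 TPM for Atf4, 241.39 for Pgam1, 21.12 for Tfrc and 7.19 for Elovl6. In the same group replicate 3 was high at 23.72 TPM for Rn7s2 and replicate 2 low at 149.84 for Sgk1. In vehicle replicate 2 was low at 46.25 TPM for Tars, 35.72 for Aldh18a1 and 37.49 for Wars, replicate 4 low at 52.38 for Dhcr7 and high at 56.40 for Mars, and replicate 1 high at 678.71 for Cdk4.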

How the results depend on the processing

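For 136 genes described and 22 other settings, 2810 of the log2 fold changes kept their direction and side of the threshold, 154 lost the call, 10 gained it and 13 changed sign. The sign changes were those of Axin2, -0.01 as reported, 0.0107 with library weights and -0.127 to 0.108 without single libraries, and of Hif1a, -0.0285 with median-ratio scaling, -0.022 with quantile normalization, -0.0102 without mitochondrially encoded genes, -0.0315 with the skeletal muscle level as a covariate and -0.0337 to 0.074 without single libraries. The 1457 calls became 3205 with library weights and 114 with a minimum of 1.2-fold, and 699 to 1311 without single libraries. The 339 genes that differed between doses became 219 with only the groups compared, 1263 with library weights, 62 with the 1.2-fold minimum and 148 to 356 without single libraries. The 226 genes whose effect differed between days became 68, 745 and 29 under these settings and 92 to 601 without single libraries. Causes were not tested.

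Other scalings, filters and pseudocounts left 1052 to 1529 genes called, and the added rescaling to protein-coding genes, chosen after seeing the data, left 1513. The replicate number as a block gave 1803 genes against vehicle, 360 between doses and 349 between days. The correlations do not show that equal numbers mark paired samples, and not every library correlated best with its own number. The unknown depth limits what can be said of genes near 1 TPM.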

Other observations

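All 20 interferon-stimulated genes tested had a positive log2 fold change, with a median of 0.44, and none passed the threshold. The share called over all genes was 9.26%. Of 14 YAP targets 3 rose (21.4%), of 20 ErbB pathway genes 4 and of 23 immediate early genes 3, and none fell. These counts are small, and nothing is read from them about the lists. Of 21 TGF-β pathway genes 2 rose (9.52%) and of 15 Notch pathway genes 1 (6.67%). Of 22 chemokines and cytokines 1 rose, Cxcl16 (4.55%), and of 12 T and NK cell genes none passed. Of 21 proteasome subunits 3 fell and none rose (14.3%), and of 23 ribosome biogenesis genes 2 fell (8.70%). With the 1.2-fold minimum 1 immediate early gene rose and no gene of the YAP, ErbB or proteasome lists passed. Without vehicle replicate 1 no YAP target and 1 ErbB gene rose. Without replicate 3 at 50 mg/kg 1 YAP target and 1 ErbB gene rose and none of the TGF-β, Notch, chemokine, proteasome or ribosome biogenesis lists passed. Pseudogenes made up 7 of the 779 genes that rose and 34 of the 678 that fell.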
